A study of Homo sapiens with 3 samples.

Results

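The mRNA of 39 genes of G2 phase and mitosis was followed in clones of the bladder cancer cell line 5637 with and without acquired gemcitabine resistance. The 39 were named by function, and all 39 were found by symbol among the 29960 genes of the deposited table. Each was also among the 14696 genes that had at least 10 reads in at least 2 libraries and at least 15 reads in all, the background of each share of all genes below unless another is named. 5637 is an established epithelial line from a human bladder carcinoma, and gemcitabine is a deoxycytidine analogue that blocks DNA synthesis. Parental 1 is a single-cell clone of the parental line, with genotype WT in the labels. Resistant 1 and Resistant 2 are single-cell clones of the gemcitabine-resistant derivative. All 3 libraries are labelled untreated: the resistant line was kept without drug, so no group was exposed to gemcitabine at harvest. The labels describe the selection as acute treatment and the study's methods as a continuous, stepwise exposure. The clones were grown to confluence, so each library samples a crowded culture whose share of dividing cells was not measured. Each library is 1 clone, and the labels do not say whether further cultures of it were made.

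The deposited counts summed to 14475531 reads in Parental 1, 15836788 in Resistant 1 and 17461941 in Resistant 2. One read was worth 0.0709, 0.0612 and 0.0576 CPM, respectively, where CPM is the read count scaled to a common library size by the trimmed mean of M values (TMM, a method that equalises the bulk of the genes). Mitochondrial transcripts held 2.27%, 3.28% and 2.43% of the reads in that order. The epithelial markers EPCAM, CDH1, KRT7, KRT8, KRT18 and KRT19 were present in every library, whereas the urothelial differentiation gene UPK3A had 0 reads in all 3 and UPK2 had 3, 9 and 5. In Parental 1, Resistant 1 and Resistant 2, EPCAM had 285, 338 and 291 CPM and CDH1 had 340, 397 and 321. KRT7 had 1986, 1047 and 868 CPM, KRT8 had 2270, 1666 and 1015, and KRT18 had 280, 248 and 180. KRT19 had 4304, 3591 and 4786 CPM, GATA3 had 96.2, 64.0 and 61.6, and TP63 had 102.9, 65.1 and 73.8. The basal keratin KRT5 was at 271.5, 9.78 and 13.8 CPM in Parental 1, Resistant 1 and Resistant 2, and the uroplakin UPK1B had 74, 0 and 0 reads. The 12 epithelial and urothelial markers summed to 9941, 7426 and 7610.0 CPM, and their part in the results below was not tested. The leukocyte gene PTPRC had 4, 3 and 2 reads. Of 13 genes that mark other cell types, COL1A1 was the most abundant in Parental 1. Their summed level was 174, 156 and 148 CPM in Parental 1, Resistant 1 and Resistant 2. In that order, COL1A1 had 113, 96.9 and 61.2 CPM, and COL1A2 had 59.2, 57.9 and 83.99. COL1A2 was thus highest in Resistant 2, where COL1A1 and the sum were lowest.

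Entry into mitosis is driven by CDK1 bound to a B-type cyclin, which phosphatases of the CDC25 family switch on and WEE1 holds back. Kinetochores then attach chromosomes to the spindle, a checkpoint waits until all are attached, and the anaphase-promoting complex with CDC20 marks cyclin B and securin for destruction so that chromosomes separate and the cell divides. Many genes of this programme are transcribed together late in the cycle, through CCAAT boxes bound by NF-Y and a short element near the start site, the CHR, bound by the MuvB proteins with B-MYB and FOXM1 in dividing cells and with the DREAM repressor in resting cells. In a culture, their summed mRNA is therefore often read as a sign of how much of it is dividing. In bulk RNA, fewer cells in mitosis and less mRNA per such cell cannot be told apart.

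The shared promoter elements are shown because the members are a co-transcribed family. Promoter windows of 250 bases before to 50 bases after a start were taken from RefSeq (GRCh38.p14) for 33 of the 39 members, 40 windows in all. AURKA, BIRC5, FOXM1, TPX2, TTK and UBE2C had no window. The motifs searched on both strands were the CHR letters TTTGAA, the variant TTTAAA and CCAAT. Printed below are the 100 bases before the start for the 4 members with the smallest p in the comparison of the groups (KIF20A, CCNB1, CDC25C and PRC1), the member that differed most between the resistant clones (CCNB2), MKI67, and ECT2, the matched member with the highest fitted log2 fold change. Where a gene had several starts, the one with the most GENCODE 29 transcript starts was taken. Capitals mark the motifs, which read ATTGG or TTCAAA on the other strand. In MKI67, one TTTGAA and one ATTGG share their A.
KIF20A (chr5:138179012-138179111, plus strand): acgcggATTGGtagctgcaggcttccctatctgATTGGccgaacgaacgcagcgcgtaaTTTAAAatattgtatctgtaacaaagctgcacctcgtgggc
CCNB1 (chr5:69167050-69167149, plus strand): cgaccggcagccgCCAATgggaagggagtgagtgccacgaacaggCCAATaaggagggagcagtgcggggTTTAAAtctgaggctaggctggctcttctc
CDC25C (chr5:138331878-138331977, minus strand): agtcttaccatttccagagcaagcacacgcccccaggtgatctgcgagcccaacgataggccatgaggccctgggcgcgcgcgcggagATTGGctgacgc
PRC1 (chr15:90994536-90994635, minus strand): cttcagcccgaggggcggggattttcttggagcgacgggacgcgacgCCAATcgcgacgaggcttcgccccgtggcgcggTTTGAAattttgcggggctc
CCNB2 (chr15:59105046-59105145, plus strand): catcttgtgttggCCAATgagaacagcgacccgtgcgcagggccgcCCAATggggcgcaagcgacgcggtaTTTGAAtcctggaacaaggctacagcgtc
MKI67 (chr10:128126424-128126523, minus strand): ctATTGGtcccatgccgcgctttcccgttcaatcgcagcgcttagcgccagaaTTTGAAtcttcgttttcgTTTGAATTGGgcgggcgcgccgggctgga
ECT2 (chr3:172750626-172750725, plus strand): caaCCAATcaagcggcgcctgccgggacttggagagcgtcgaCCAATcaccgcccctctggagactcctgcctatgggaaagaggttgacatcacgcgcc

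TTTGAA was found in 65% of the members' windows and in 15.2% of all 35116 windows of the same length. TTTAAA was found in 35% of the members' windows against 12.2% of all, and CCAAT in 75% against 34.6%. Windows with at least 2 CCAAT made up 50% of the members' and 10.8% of all. Those that held both CCAAT and TTTGAA or TTTAAA, at any spacing, made up 62.5% and 9.27%. In the members, the median position was -73 for CCAAT and -29 for TTTGAA or TTTAAA, counted from the start. The 23 members with TTTGAA in a window had a median log2 ratio of Resistant 2 to Parental 1 of -0.67, and the 10 without it had -0.79. With TTTGAA or TTTAAA the order was the other way, -0.73 in 28 members and -0.56 in the 5 without either. A match describes letters in a window and was not tested as a binding site.

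The members as a group were least abundant in Resistant 2. Their summed level was 4539 CPM in Parental 1, 3932 in Resistant 1 and 2758 in Resistant 2. As a share of all reads this was 0.442% (95% exact binomial interval 0.439 to 0.446), 0.406% (0.403 to 0.409) and 0.274% (0.272 to 0.277), intervals that cover counting error only. Resistant 2 thus held 60.8% of the parental sum and Resistant 1 held 86.6%. All 39 members were lower in Resistant 2 than in Parental 1, against 49.9% of all genes tested, and 28 were lower in Resistant 1 than in Parental 1, against 49.3%. The same 28 were lower in both clones, against 34.6% of all genes. In Resistant 1 many of these differences were small: for 10 of the 28 the 95% counting interval of the ratio spanned 0. By the deposited FPKM, which are not TMM-scaled, 20 members were lower in both clones, since FOXM1, BUB1B, CENPE, CDK1, CCNA2, PLK1, CENPA and KIF11 were then higher in Resistant 1 than in Parental 1, while all 39 were lower in Resistant 2. The shares of all genes given here are by CPM, so these FPKM counts have no share of all genes beside them. No member was above the parental level in both resistant clones, where 35.4% of all genes tested were.

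The size of the difference also set the clones apart. In Resistant 2, 25 members were at least 1.5-fold below Parental 1, against 15.8% of all genes tested, and 11 were at least 2-fold below, against 5.1%. In Resistant 1, 6 members were at least 1.5-fold below, namely KIF20A, CDC25C, CCNB1, PRC1, TPX2 and MYBL2, against 13.6% of all genes. KIF20A alone was at least 2-fold below there, against 4.84% of all genes. The same 6 genes were past that fold in both clones, where 7.12% of all genes were. No member was at least 1.5-fold above Parental 1 in either clone, where 12.4% of all genes tested were in Resistant 1 and 17.2% in Resistant 2. The median member log2 ratio to Parental 1 was -0.71 in Resistant 2 (quartiles -1.03 and -0.49) and -0.11 in Resistant 1 (quartiles -0.33 and 0.01), while the median over all genes tested was 0.00 and 0.01. Both ratios share the parental library. They are log2 ratios of CPM after adding 0.5, as are the ratios of single libraries below.

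**Figure D1:**
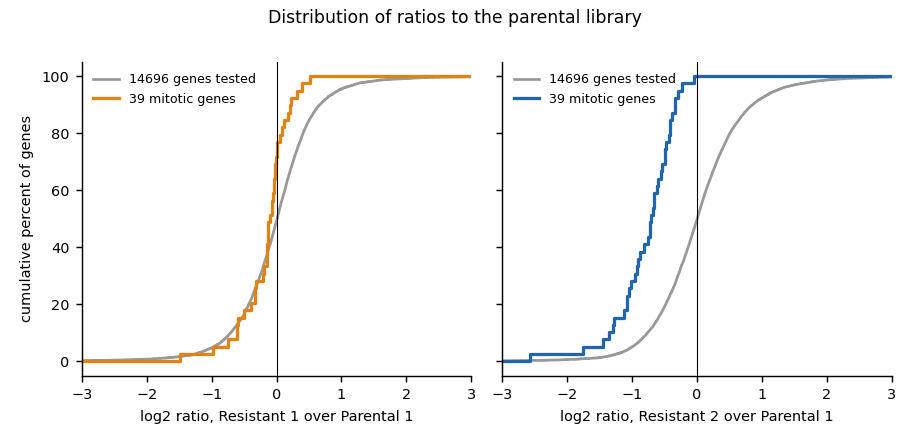
Cumulative percent of genes (vertical axis) by log2 ratio of CPM to Parental 1 (horizontal axis, shown from -3 to 3) for Resistant 1 (left) and Resistant 2 (right). The coloured line is the 39 mitotic genes and the grey line the 14696 genes tested; in Resistant 2 the whole coloured line lies below 0, with a median of -0.71, and in Resistant 1 its median is -0.11.

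No member passed the test between the groups. With edgeR's quasi-likelihood test of 1 parental against 2 resistant libraries, 0 of 39 members had an adjusted p under 0.05, as against 17 of the 14696 genes tested (0.116%), 11 of them lower (0.0749%) and 6 higher (0.0408%) in the resistant clones. At an unadjusted p under 0.05 the members counted 4, all lower (KIF20A, CCNB1, CDC25C and PRC1), and all genes 1382 (9.4%), of which 4.32% of the genes tested were lower. With DESeq2, 1 member had an adjusted p under 0.05, KIF20A, as against 205 of the 13556 genes that it gave an adjusted p (1.51%). The median fitted log2 fold change of the members, resistant over parental, was -0.34, and over all genes tested 0.02. The fit has 1 residual degree of freedom: its spread comes from the 2 resistant clones, a biological coefficient of variation of 27.2% over all genes, and the parental clone is assumed to vary as they do.

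The authors' group means, which also take in libraries not analysed here, placed the members closer together. The authors' mean was lower in the resistant group for 33 members, against 47.7% of all genes tested, and at least 1.5-fold lower for 4, against 8.65%. The median log2 ratio of these means was -0.19 for the members and 0.02 for all genes tested. They carry no error, and each authors' mean below is in normalized counts.

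**Figure D2:**
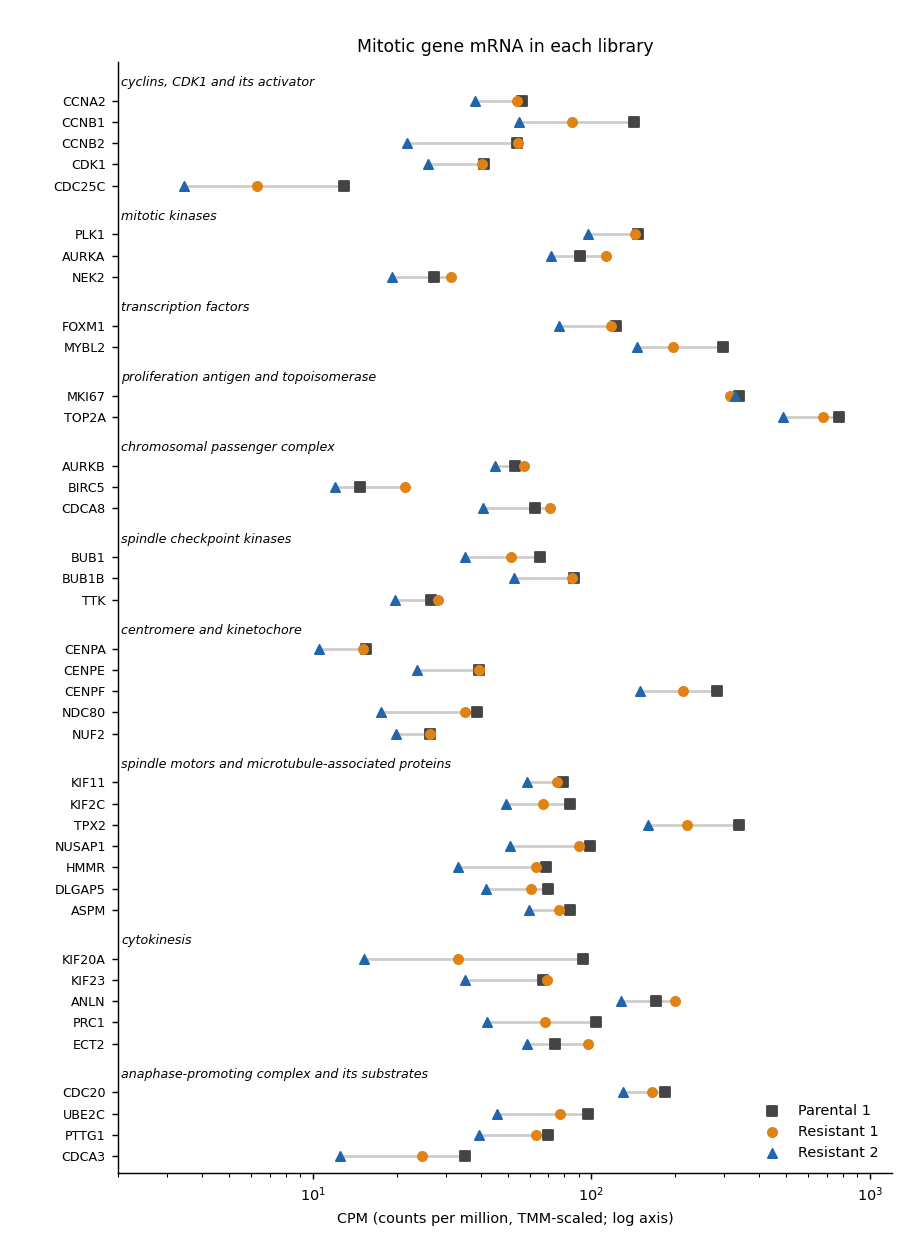
CPM of each mitotic gene on a log axis, 1 symbol per library, grouped by role. The grey bar joins the lowest and the highest of the 3 libraries; Resistant 2 is the lowest of the 3 for each gene but MKI67.

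The 5 regulators that drive entry into mitosis were lower in Resistant 2, and CCNB1 and CDC25C were lower in Resistant 1 as well. CDK1 and CCNA2 were below Parental 1 in Resistant 1 by CPM and above it by FPKM. CCNB1, which encodes cyclin B1, the activating partner of CDK1, was read at 143 CPM in Parental 1, 85.2 in Resistant 1 and 55.1 in Resistant 2. The parental library thus held the most and Resistant 2 the least. Its fitted log2 fold change was -1.02 ± 0.37 (SE), with an adjusted p of 0.439. The authors' mean was 2171 in the parental and 1403 in the resistant group. CDC25C, the phosphatase that removes the inhibitory phosphates from CDK1, was the least abundant member per length, with a mean of 3.53 FPKM (reads scaled to gene length and library total). It had 12.9, 6.30 and 3.46 CPM in Parental 1, Resistant 1 and Resistant 2, a log2 fold change of -1.40 ± 0.51 (SE) with an adjusted p of 0.447, and authors' means of 178 and 105. These counts rest on 182, 103 and 60 reads, and CDC25C overlaps FAM53C on the opposite strand by 6421 bases, a gene with 602, 536 and 548 reads. CCNB2, cyclin B2, separated the resistant clones more than any other member, with 54.0 CPM in Parental 1, 54.4 in Resistant 1 and 21.7 in Resistant 2. The log2 ratio of Resistant 2 to Resistant 1 was -1.30. Its fitted log2 fold change of -0.50 ± 0.51 (SE) had an adjusted p of 0.861, and the authors' means were 805 and 651. CDK1, the mitotic kinase itself, stood at 41.3, 40.4 and 25.9 CPM, a log2 fold change of -0.32 (adjusted p = 0.901), with authors' means of 621 and 539.8. CCNA2, cyclin A2 of S phase and G2, had 56.6, 53.9 and 38.2 CPM. It overlaps EXOSC9 on the opposite strand by 578 bases, a gene with 364, 469 and 405 reads.

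The kinases that act through mitosis were near or above the parental level in Resistant 1 and below it in Resistant 2. AURKA, which matures the centrosome and activates PLK1, was read at 91.0 CPM in Parental 1, 113 in Resistant 1 and 71.4 in Resistant 2, so the resistant clones lay on either side of the parental one. Its log2 fold change was 0.02 ± 0.39 (SE), with an adjusted p of 0.997, and the authors' means were 1398 and 1424. PLK1, which acts from mitotic entry to cytokinesis, had 147, 143 and 96.9 CPM. NEK2, which splits the centrosomes, had 27.2, 31.4 and 19.3 CPM. The 3 kinases together stood at 109% of the parental sum in Resistant 1 and at 70.7% in Resistant 2.

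Of the transcription factors of the programme, MYBL2 was lower in both clones and FOXM1 in Resistant 2, its direction in Resistant 1 depending on the scaling. MYBL2, which encodes B-MYB, was the third most abundant member per length, at a mean of 80.4 FPKM. It was read at 297 CPM in Parental 1, 196 in Resistant 1 and 146 in Resistant 2. Its fitted log2 fold change was -0.80 ± 0.36 (SE), with an adjusted p of 0.547, and authors' means of 4155 and 3119. FOXM1, which activates many of the other members, had 123, 118 and 76.6 CPM. Resistant 1 was thus close to the parental level and Resistant 2 below it, and the fitted log2 fold change of -0.34 ± 0.38 (SE) had an adjusted p of 0.885, with authors' means of 1696 and 1544. FOXM1 overlaps ITFG2 and RHNO1 on the opposite strand, and as the strand setting of the counts is not given in the sources used here, reads of overlapping genes cannot be told apart.

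MKI67 and TOP2A, the 2 markers most often used for dividing cells, stood differently in Resistant 2. TOP2A, the topoisomerase that untangles sister chromosomes, was the most abundant member per length (112 FPKM) and was read at 776 CPM in Parental 1, 678 in Resistant 1 and 489 in Resistant 2. The fitted log2 fold change was -0.41 ± 0.38 (SE) with an adjusted p of 0.842, and the authors' means were 11407 and 9794. MKI67, which encodes the proliferation antigen Ki-67, had 339.8, 315 and 328 CPM. Resistant 1 and Resistant 2 were close to each other and to the parental clone, and MKI67 was the single member that was higher in Resistant 2 than in Resistant 1. Its log2 fold change was -0.08 ± 0.35 (SE), with an adjusted p of 0.983, and the authors' means were 5005 and 4995.

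The chromosomal passenger complex corrects wrong kinetochore attachments, and 3 of its subunits are among the members. Its kinase AURKB was read at 53.0 CPM in Parental 1, 57.4 in Resistant 1 and 44.9 in Resistant 2, a log2 fold change of -0.05 (adjusted p = 0.989), with authors' means of 891 and 872. BIRC5, the survivin subunit, had 14.7, 21.4 and 12.0 CPM, and its log2 fold change of 0.18 ± 0.47 (SE), the highest of the members, had an adjusted p of 0.966; the authors' means were 239.8 and 275. CDCA8, the borealin subunit, had 62.9, 70.9 and 40.7 CPM. All 3 members were thus above the parental library in Resistant 1 and below it in Resistant 2. For AURKB in Resistant 1, the counting interval of the log2 ratio, -0.03 to 0.25, covered both directions. The sum of the 3 members stood at 115% and 74.7% of the parental level. INCENP, the scaffold of the complex and not a member, was at 197 CPM in Parental 1, 147 in Resistant 1 and 108 in Resistant 2, and with it the sum stood at 90.5% and 62.6%. INCENP was added after its values were seen, and its log2 fold change was -0.63 (adjusted p = 0.658).

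The spindle checkpoint kinases and the kinetochore genes were lowest in Resistant 2. BUB1B, which encodes the checkpoint protein BUBR1, was read at 86.4 CPM in Parental 1, 85.1 in Resistant 1 and 52.6 in Resistant 2, a log2 fold change of -0.33 (adjusted p = 0.895), with authors' means of 1242 and 1157. BUB1B overlaps PAK6 on the same strand. BUB1, its partner kinase, had 65.2, 51.5 and 35.2 CPM, and TTK, the kinase MPS1, had 26.7, 28.3 and 19.7. CENPF, a large protein of the outer kinetochore, had 283 CPM in Parental 1, 214 in Resistant 1 and 149 in Resistant 2, a stepwise difference with a log2 fold change of -0.64 ± 0.37 (SE) and an adjusted p of 0.672. Its authors' means were 4092 and 3128. NDC80, which holds the microtubule at the kinetochore, had 38.9, 35.1 and 17.6 CPM. It was among the 5 members with the largest difference between the clones, with a log2 ratio of Resistant 2 to Resistant 1 of -0.98, a fitted log2 fold change of -0.56 (adjusted p = 0.801) and authors' means of 544 and 479. NUF2, its binding partner, had 26.3, 26.4 and 19.9 CPM. CENPA, the histone H3 variant of centromeres, had 15.5, 15.1 and 10.5 CPM and overlaps SLC35F6 on the same strand by 16943 bases, a gene with 457, 780 and 889 reads. CENPE, a kinetochore motor, had 39.4, 39.4 and 23.7 CPM.

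All 7 spindle motors and microtubule-associated proteins were lower in both resistant clones by CPM, and all but KIF11 in Resistant 1 by FPKM. TPX2, which activates Aurora A on the spindle, was the most abundant of them per length (66.3 FPKM), at 338 CPM in Parental 1, 221 in Resistant 1 and 160.1 in Resistant 2. The parental library was highest, with a log2 fold change of -0.83 ± 0.36 (SE), an adjusted p of 0.534 and authors' means of 4601 and 3169. The log2 ratios of the other 6 genes in Resistant 1 ran from -0.32 for KIF2C, a motor that takes microtubules apart, to -0.07 for KIF11, the motor that pushes the spindle poles apart. In Resistant 2 they ran from -1.04 for HMMR, a spindle assembly factor, to -0.42 for KIF11. NUSAP1, which bundles spindle microtubules, had 99.3, 90.6 and 51.0 CPM, and ASPM, a protein of the spindle poles, had 83.9, 76.4 and 59.7. DLGAP5, which stabilises the fibres to the kinetochores, had 70.0, 60.6 and 42.0 CPM.

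The cytokinesis genes ranged from the lowest fitted log2 fold change of all members to the second highest. KIF20A, a motor of the central spindle, was read at 93.3 CPM in Parental 1, 33.1 in Resistant 1 and 15.2 in Resistant 2, from 1316, 541 and 264 reads. It was the lowest of all members in both clones, with log2 ratios to the parental library of -1.48 (95% counting interval -1.64 to -1.35) and -2.58 (-2.81 to -2.43). Its fitted log2 fold change of -1.95 ± 0.45 (SE) had an adjusted p of 0.186, and the authors' means were 1224 and 710.0. KIF20A overlaps CDC23 and BRD8 on the opposite strand by 66 and 268 bases. PRC1, which bundles microtubules where the daughter cells part, had 104, 67.9 and 42.2 CPM. Its log2 fold change was -0.91 ± 0.38 (SE), with an adjusted p of 0.506 and authors' means of 1421 and 881. KIF23, the motor subunit of centralspindlin, had 67.1, 69.6 and 35.1 CPM, so that Resistant 2 stood apart from the other 2 libraries. The fitted log2 fold change was -0.36 (adjusted p = 0.899), with authors' means of 1087 and 974. ANLN, the scaffold of the contractile ring, had 171, 199 and 128 CPM, a log2 fold change of -0.06 (adjusted p = 0.987) and authors' means of 2459.8 and 2633. ECT2, which switches on RhoA to start the furrow, had 74.2, 97.2 and 58.5 CPM, with the resistant clones on either side of the parental one. Its log2 fold change of 0.07 had an adjusted p of 0.986, and the authors' means were 1086 and 1199.5.

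The 4 genes of the anaphase-promoting complex pathway were lower in both clones. CDC20, the activator that hands substrates to the complex, was the second most abundant member per length (89.9 FPKM) and was read at 184 CPM in Parental 1, 165 in Resistant 1 and 129.9 in Resistant 2. Its log2 fold change was -0.32 (adjusted p = 0.884), with authors' means of 2706 and 2519. CDCA3, which helps to degrade WEE1, had 35.1, 24.7 and 12.6 CPM. Resistant 2 was well below both others, and the log2 fold change of -0.91 ± 0.45 (SE) had an adjusted p of 0.592, with authors' means of 477 and 344. CDCA3 overlaps GNB3 on the opposite strand by 2601 bases, a gene with 29, 69 and 91 reads. UBE2C, the ubiquitin-conjugating enzyme of the complex, had 97.2, 77.2 and 45.7 CPM, and PTTG1, the securin that holds separase, had 69.8, 63.1 and 39.3.

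**Figure D3:**
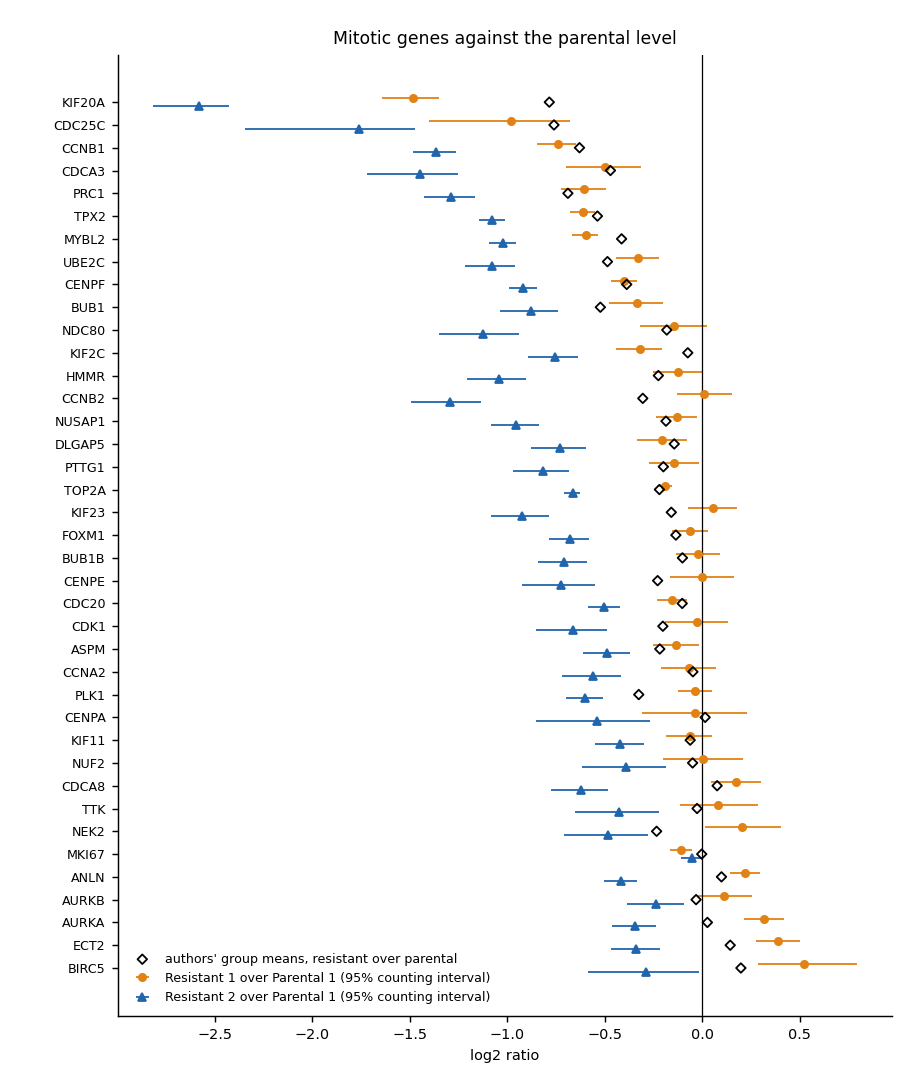
Log2 ratio to Parental 1 of each mitotic gene in Resistant 1 (circles) and Resistant 2 (triangles), with 95% counting intervals, and the same ratio from the authors' means (open diamonds). Genes are ordered by fitted log2 fold change, from KIF20A at -1.95 to BIRC5 at 0.18; every triangle is left of 0, while 11 circles are right of it.

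Compared directly, Resistant 2 was below Resistant 1 for 38 of 39 members, against 50.7% of all genes tested. The members were at least 1.5-fold lower in 22 cases, against 10.2% of all genes, and at least 2-fold lower in 2, CCNB2 and KIF20A, against 2.15%. No member was at least 1.5-fold higher in Resistant 2 than in Resistant 1, against 14.2% of all genes. The largest log2 ratios of Resistant 2 to Resistant 1 were -1.30 for CCNB2, -1.10 for KIF20A, -0.98 for NDC80, -0.98 for KIF23 and -0.95 for CDCA3. This is 1 library against 1 and has no replicate check. The 11 members above the parental level in Resistant 1 were CCNB2, KIF23, NUF2, CDCA8, TTK, NEK2, ANLN, AURKB, AURKA, ECT2 and BIRC5. Their log2 ratios to Parental 1 ran from 0.00 to 0.52. For CCNB2, KIF23, NUF2, TTK and AURKB, the counting interval of this ratio covered both directions. Of the better-read genes (mean over the libraries of 10 CPM or more), 52.1% were lower in Resistant 2 than in Parental 1 and 15.6% were at least 1.5-fold lower, close to the shares over all genes tested.

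The members lie on 15 chromosomes. Positions are those deposited, and the submitters' processing notes name hg19. Chromosome 1 holds the most, 7 (ASPM, CDC20, CDCA8, CENPF, KIF2C, NEK2 and NUF2), with a median fitted log2 fold change of -0.30. Chromosomes 5 and 15 hold 5 each, with medians of -1.02 and -0.49. KIF20A (chr5:137514408-137523404) and CDC25C (chr5:137620954-137674044) are close neighbours, and CCNB1 (chr5:68462837-68474072), HMMR and PTTG1 are on the same chromosome. To see how the surroundings of each member read, the median log2 ratio of the genes tested within 5 Mb on either side, members left out, was taken, over 15 to 198 genes for each member. For 11 members (CCNB1, CDC25C, FOXM1, MYBL2, TPX2, HMMR, KIF20A, PRC1, UBE2C, PTTG1 and CDCA3) the neighbours' median for the mean of the resistant libraries was at or below -0.25, a limit chosen after the values were seen. These 11 had a median log2 ratio of -0.60 in Resistant 1 and -1.08 in Resistant 2, and the other 28 had -0.03 and -0.58. All 6 genes that were at least 1.5-fold lower in both clones were among the 11, which the neighbours' values themselves defined.

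With the neighbours' median subtracted, the members at least 1.5-fold lower in Resistant 1 went from 6 to 1, KIF20A, where 9.61% of the 14627 genes with enough neighbours were past the fold. The members lower at all in Resistant 1 went from 28 to 31, against 49.8% of those genes. In Resistant 2, 25 members past the fold went to 23, against 10.8%, and all 39 were lower, against 50.1%. The median log2 ratio of the members went from -0.11 to -0.17 in Resistant 1 and from -0.71 to -0.72 in Resistant 2. For KIF20A, the neighbours' median was -0.43 in Resistant 1 and -0.45 in Resistant 2, and the gene was lower than its neighbours by a log2 ratio of -1.05 and -2.13. MKI67 was in the opposite position in Resistant 2, with neighbours at 0.74 and a ratio of -0.79 to them. For FOXM1 the subtraction gave 0.21 and -0.03. DNA was not measured, so the number of gene copies and the regulation of a chromosomal region cannot be told apart, and neighbouring members share their surroundings.

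**Figure D4:**
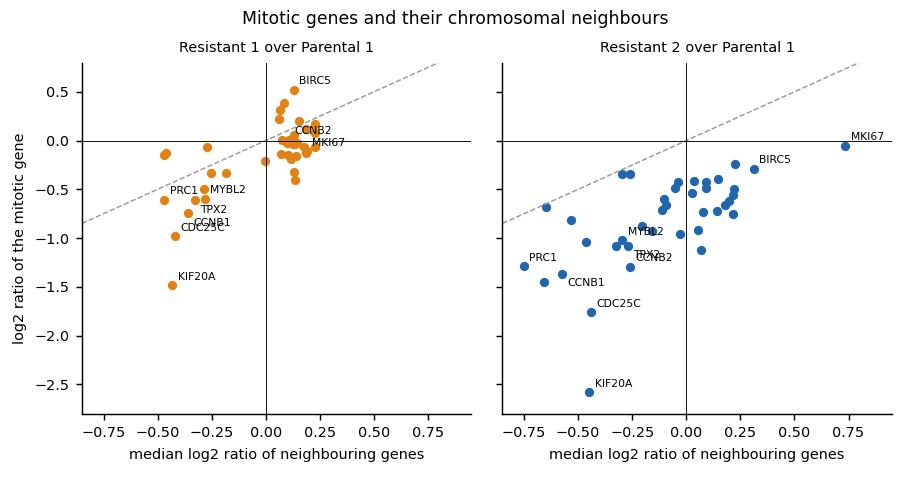
Log2 ratio to Parental 1 of each mitotic gene (vertical axis) against the median log2 ratio of the other genes tested within 5 Mb of it (horizontal axis), for Resistant 1 (left) and Resistant 2 (right). The dashed line marks equal values; every gene of Resistant 2 lies below it, and in Resistant 1 KIF20A is the one gene at least 1.5-fold below its neighbours.

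Genes that work beside the members were taken from 8 further lists. None of their 141 genes tested had an adjusted p under 0.05 with edgeR, and DESeq2 gave 1, the CDK inhibitor CDKN1C, where the share of all genes with an adjusted p was 1.51%. Below an unadjusted p of 0.05, 10 were lower and 3 higher, where 4.32% of all genes tested were lower and 5.08% higher. For the counts of each list below, 34.6% of all genes were lower in both clones and 35.4% higher in both. The list closest in function, 34 other kinetochore, checkpoint and spindle genes, had 17 members lower in both resistant clones and 4 higher in both, with median log2 ratios of -0.11 in Resistant 1 and -0.51 in Resistant 2. SKA3, which helps kinetochores to hold on to microtubules, had 29.5, 12.3 and 16.0 CPM in Parental 1, Resistant 1 and Resistant 2 (log2 fold change -1.06, adjusted p = 0.440). SPC25, a subunit of the NDC80 complex, had 19.9, 10.9 and 7.32 CPM (-1.13, adjusted p = 0.466). Of 20 condensin, cohesin and separase genes, 7 were lower in both clones and 10 in Resistant 2 but not in Resistant 1, against 15.3% of all genes tested. Their medians were 0.14 in Resistant 1 and -0.43 in Resistant 2. ESPL1, the separase that cuts cohesin, had 100.3, 66.7 and 49.0 CPM (-0.79, adjusted p = 0.531). NCAPD2, a condensin subunit, was at 318, 229 and 145 CPM (-0.76, adjusted p = 0.606).

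The next lists hold genes that restrain or promote entry into mitosis, set the repressor of the programme, or build or assist the anaphase-promoting complex. For 15 G2/M inhibitors and phosphatases, 6 were lower and 5 higher in both clones, with medians of 0.04 in Resistant 1 and -0.24 in Resistant 2. WEE1, the kinase that inhibits CDK1, had 113 CPM in Parental 1, 46.4 in Resistant 1 and 54.0 in Resistant 2, a log2 fold change of -1.17 ± 0.32 (SE) with an adjusted p of 0.283. GTSE1, a G2 phase gene, had 80.6, 49.96 and 35.7 CPM (-0.91, adjusted p = 0.464). The 20 genes of the DREAM complex, MuvB and the Rb family had medians of 0.04 and -0.05. The 16 genes of the anaphase-promoting complex list had medians of -0.13 and -0.04. Beside core subunits, that list holds the co-activator FZR1 and the ubiquitin-conjugating enzyme UBE2S. In Resistant 2 their log2 ratios were 0.37 for FZR1 and 0.07 for UBE2S. The smallest p-values of the first list belonged to NFYB, a subunit of NF-Y, with 43.2, 30.0 and 27.5 CPM (-0.59, adjusted p = 0.674), and LIN54, the MuvB protein that binds the CHR, with 14.5, 23.2 and 20.6 (0.60, adjusted p = 0.717). In the second list they belonged to the subunits ANAPC15, with 4.75, 2.20 and 2.19 CPM (-1.11, adjusted p = 0.585), and CDC23, with 48.4, 37.3 and 29.03 (-0.54, adjusted p = 0.712). For both lists, the median in Resistant 2 was within 0.1 of the median over all genes, with FZR1 and UBE2S included in the second. The core subunits alone were not summarised.

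Of the genes of the earlier cell cycle, 2 lists were taken, and the difference between them was not tested. Many of the 19 MCM and other G1/S genes load and fire replication origins. Of the 19, 10 were lower in both clones and 1 higher in both, with medians of -0.08 in Resistant 1 and -0.42 in Resistant 2. MCM6, a subunit of the replicative helicase, had 136, 77.3 and 64.8 CPM (-0.93, adjusted p = 0.427). GINS1, another part of that helicase, had 65.0, 48.8 and 34.2 CPM (-0.65, adjusted p = 0.649). Of the 10 G1 and S phase cyclins and their kinases, 9 passed the filter on low counts, and 4 were lower and 3 higher in both clones, with medians of -0.10 in Resistant 1 and -0.15 in Resistant 2. CCND3, cyclin D3, had 38.4, 80.4 and 65.9 CPM (0.93, adjusted p = 0.463). CDK7, the kinase that activates other CDKs, had 25.9, 19.7 and 15.03 CPM (-0.58, adjusted p = 0.726). CCND1, cyclin D1, was abundant, at 1265 CPM in Parental 1, 1360.2 in Resistant 1 and 1855 in Resistant 2 (0.35, adjusted p = 0.890).

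**Figure D5:**
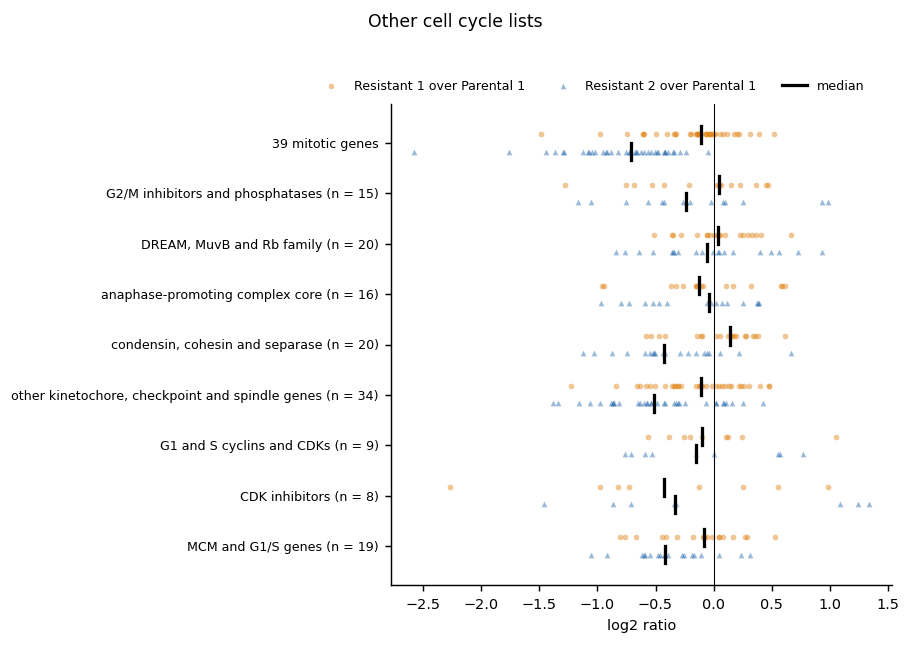
Log2 ratio to Parental 1 of the genes tested of each list, in Resistant 1 (circles) and Resistant 2 (triangles), with the median of each as a black bar. The medians in Resistant 2 run from -0.71 for the 39 mitotic genes, through -0.51 for other kinetochore, checkpoint and spindle genes, to -0.04 for the anaphase-promoting complex core. The last list also includes FZR1 and UBE2S, which are not core subunits.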

How the data were processed

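Poly-A RNA of single-cell clones was sequenced on an Illumina instrument. The submitters' processing notes name CASAVA 1.8 and hg19, while the aligner and counter are not given in the sources used here. The authors deposited raw read counts per gene and FPKM values, which equal the counts divided by gene length and library total. They also deposited a signal per group, the authors' mean of normalized counts. Their log2 fold changes and p-values were not used, nor were 6 per-library columns of libraries not analysed here. Gene lengths were used as deposited.

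The counts of 1 parental and 2 resistant libraries were fitted with edgeR 4.0.16 (R 4.3.3; TMM, quasi-likelihood test, two-sided, Benjamini-Hochberg adjustment over 14696 genes, threshold 0.05). p-values measure only the spread between these samples. Ratios of single libraries used log2(CPM + 0.5), and those of the authors' means a pseudocount of 1. Counting intervals are exact (95%). Each SE was derived from the test, as the absolute log2 fold change divided by the square root of the F statistic. Alternatives were DESeq2 1.42.0, limma 3.58.1 (limma-trend), size factors of DESeq2 type, no filter, other pseudocounts and leaving out a resistant library. The fits of edgeR, DESeq2 and limma-trend were tested on simulated counts. There each gene had the same spread in both groups, so the assumption about the parental clone was not checked.

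The members, gene lists and tests were chosen with earlier results of these data known. All members are accounted for. Given in full were those with an adjusted p under 0.05, the 5 highest and 5 lowest log2 fold changes, the most abundant per length of each role, 6 fixed markers (MKI67, TOP2A, CCNB1, CDK1, FOXM1 and MYBL2) and the 5 with the largest difference between clones. Of other lists, the 2 genes with the smallest p were named, and WEE1, CCND1 and CDKN1A. CDKN2A, CDKN2B, CDKN2C, CDKN2D, CDKN3, INCENP, FZR1 and UBE2S were named outside this rule. The split of members by their neighbours, the background at a mean of 10 CPM and, for the other lists, limma-trend, no filter and leaving out a resistant library were added after seeing the data.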

Additional observations from a re-analysis of the deposited data

How the results depend on the processing

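No paired analysis was possible: there was 1 parental library, and the study describes its clones as independently derived. The count of members with an adjusted p under 0.05, 0 with edgeR, was 1 with DESeq2 and 1 without the filter on low counts, in both cases KIF20A. For the other lists it was 0, and 1, CDKN1C, with DESeq2 and without the filter. Over all genes the count was 17 with edgeR, 205 with DESeq2, 88 with DESeq2-type size factors, 29 with limma-trend and 534 of 26434 without the filter, where the median over all genes was 0.12 and not 0.02. The median log2 ratio of the members, -0.34, was -0.11 without Resistant 2 and -0.71 without Resistant 1, so Resistant 2 decides its size. By FPKM it was -0.28, and the members lower in both clones were 20 in place of 28. The authors' group means gave 0.0696 for the anaphase-promoting complex list (-0.07 in the fit) and -0.0634 for G1 and S cyclins (-0.12). They gave -0.0382 for MCM and G1/S genes (-0.22) and -0.0295 for CDK inhibitors (-0.26). Leaving out 1 resistant library, the list medians ran from -0.0534 to 0.0396 for DREAM, MuvB and Rb, from -0.43 to 0.14 for condensin and cohesin, from -0.51 to -0.11 for other kinetochore genes and from -0.43 to -0.33 for CDK inhibitors. The causes were not tested. The authors' means turned the sign of ANLN, CDCA8 and CENPA, and limma-trend that of AURKA. With 1 parental clone and 1 residual degree of freedom, the number of clones limits the precision.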

Other observations

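The CDK inhibitors, which hold cyclin-dependent kinases in check, went in both directions. Of 8 genes, 4 were lower and 2 higher in both resistant clones, and none had an adjusted p under 0.05 (edgeR). CDKN1C, which encodes p57, was read at 43.7 CPM in Parental 1, 8.68 in Resistant 1 and 15.6 in Resistant 2, a log2 fold change of -1.85 ± 0.42 (SE) with an adjusted p of 0.186. CDKN1B, p27, had 64.0, 36.0 and 34.9 CPM (-0.85, adjusted p = 0.463). CDKN2A, the gene of p16 and p14ARF, was abundant, at 863 CPM in Parental 1, 438 in Resistant 1 and 527 in Resistant 2 (-0.84, adjusted p = 0.519). CDKN1A, which encodes p21, was higher in both clones, with 111 CPM in Parental 1, 164 in Resistant 1 and 281 in Resistant 2 (1.00 ± 0.43 SE, adjusted p = 0.531). CDKN1A, CDKN2C and CDKN2D were highest in Resistant 2, while CDKN1B and CDKN3 were lowest there. CDKN1C, CDKN2A and CDKN2B were lowest in Resistant 1. These orders were seen over 3 libraries and not tested. CDKN2C, p18, had 2.91, 6.24 and 7.55 CPM (1.24, adjusted p = 0.531).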
